A study of Mus musculus with 9 samples.

Results

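Zinc finger proteins named only by a number make up one of the largest groups of DNA-binding proteins in the mouse. The group described here holds every gene whose symbol is Zfp followed by digits alone, except Zfp36, and whose value exceeded 1 TPM (a level corrected for transcript length and brought to 1 common total per library) in at least 1 of 9 libraries. Of 332 such symbols among the 24060 genes of the table, 276 met this rule, 39 had values above 0 that never exceeded 1 TPM, and 17 were listed at 0 in every library. The members were thus chosen by their symbol and selected on their highest TPM value, and by no difference between groups. The level cut chose members partly by the libraries in which they were highest: 9 of the 276 exceeded 1 TPM across R7-II libraries only, whereas 250 exceeded it in every library.

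The libraries came from activated CD8 T cells of 3 mouse lines named R7-I, R7-II and R7-III, made by nuclear transfer from single T cells, so that each line carries the T cell receptor of 1 cell specific for the ROP7 peptide of Toxoplasma gondii. The mice were on a BALB/c background, and the clones bind the peptide with different strength, R7-I most strongly and R7-II most weakly. Splenocytes of every line were incubated overnight with 10 µM ROP7 peptide in medium with 10 ng/ml IL-2, and cells positive for CD3, CD8 and the H-2Ld-ROP7 tetramer were sorted. There were 3 biological replicates per clone, all activated; unstimulated samples were not analysed here, and neither the labels nor the methods say whether each replicate came from a separate mouse, so p-values measure the spread between these libraries. Each line derives from 1 cell, so a difference between clones cannot be told apart from other differences between the lines.

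Most of these proteins bind DNA through runs of C2H2 fingers, each a short loop that holds a zinc ion with a pair of cysteines and a pair of histidines. Many begin with a KRAB domain, which recruits the co-repressor Trim28 (KAP1) and through it the histone methyltransferase Setdb1 and heterochromatin protein 1, and KRAB zinc finger proteins are best known for silencing transposable elements. The remaining members are diverse and include promoter-binding activators, subunits of chromatin complexes, ubiquitin ligases and RNA-binding proteins.

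The libraries held between 13738 and 14434 genes above 0 TPM. TPM keeps no read depth, so no counting error is given. The sorted cells expressed the 8 CD8 T cell markers examined. Their summed level was 2888 to 3005 TPM across R7-II, 2036 to 2114 TPM across R7-I and 2095 to 2238 TPM across R7-III, with 6 and 7 of the 8 higher in R7-II. Cd4 and Foxp3 summed to at most 2.07 TPM and the NK cell markers Ncr1 and Klrb1c to at most 0.17 TPM. The erythroid genes Hba-a1, Hbb-bt and Alas2 summed to 1.09 to 25.4 TPM, highest in R7-III replicates 1 and 2. B cell, MHC class II and myeloid markers summed to far less than the CD8 T cell markers, but they too were higher in R7-II. The 8 B cell markers summed to 34.2 to 71.2 TPM across R7-II, 8.14 to 15.2 TPM across R7-I and 4.92 to 7.4 TPM across R7-III, and 7 of them passed the test in both comparisons. The 4 MHC class II genes summed to 100.4 to 167 TPM across R7-II, 27.5 to 43.8 TPM across R7-I and 19.5 to 22.6 TPM across R7-III, and the 7 myeloid markers with a value to 24.4 to 79.8, 4.25 to 5.72 and 5.46 to 7.57 TPM. Their part in the differences described below was not tested. In all 3 lists R7-II replicate 2 was the lowest R7-II library. Fewer cells of a type and less RNA per cell cannot be told apart in these bulk samples.

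Most numbered Zfp genes were expressed at a low level. Their mean TPM over the 9 libraries had a median of 8.60, against 22.3 over all 11330 genes that exceeded 1 TPM, and ranged from 0.373 to 227. A translated reading frame was found for 275 members. A sequence profile built from the members' own proteins found a KRAB box in 163 and none in 112. Members without a KRAB box are thus those in which none was found at a score cut of 20. Zfp213, Zfp180 and Zfp446 scored 9.2, 5.7 and 0.1, so a divergent box could have been missed. Members with a KRAB box had a median of 12 C2H2 fingers, with 33 at most in Zfp619, and those without had a median of 7, with 37 at most in Zfp142. Members were concentrated on a few chromosomes, where chromosome 7 held 72 members, chromosome 17 held 34, chromosome 13 held 28 and chromosome 8 held 20.

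The most abundant member was Zfp207 (BuGZ), which binds Bub3 and aids chromosome alignment on the spindle. Its level was 215, 208 and 221 TPM across R7-I, 257, 238 and 242 TPM across R7-II, and 219, 216 and 226 TPM across R7-III. All R7-II values exceeded the other 6, by 0.19 and 0.15 on the log2 scale against R7-I and R7-III (adjusted p = 8.44e-04 and 0.00391), and after median-of-ratios scaling neither difference passed (0.04 in both, adjusted p = 0.253 and 0.216). Zfp146, made of C2H2 fingers along nearly its whole length, followed at a mean of 103 ± 2.43 TPM across R7-I, 115 ± 4.86 TPM across R7-II and 113 ± 3.21 TPM across R7-III (mean ± SD, n = 3). The nucleolar protein gene Zfp330, the ubiquitin ligase gene Zfp598, whose product acts on collided ribosomes, and the RNA-binding protein gene Zfp106 completed the 5 most abundant members. Zfp598 did not pass in any comparison on the TPM scale (0.04 on the log2 scale for R7-II against R7-I, adjusted p = 0.289), and after median-of-ratios scaling it was lower in R7-II than R7-I (-0.11, adjusted p = 0.00714). At the other end of the range, the members just inside the level cut were Zfp750, a regulator of epidermal differentiation, and Zfp467, a regulator of the choice between fat and bone cells, both with a highest value of 1.04 TPM, and Zfp820 with 1.06 TPM. Just outside were Zfp174 with 0.93 TPM, Zfp442 with 0.87 TPM and Zfp112 with 0.73 TPM.

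Summed over the 276 members, the level was highest in R7-II. The sum was 3760, 3778 and 3854 TPM across R7-I libraries, 4467, 4654 and 4923 TPM across R7-II libraries, and 3896, 3949 and 4081 TPM across R7-III libraries. All R7-II libraries lay above the other 6, and R7-II replicate 2 was the lowest of the 3. KRAB members contributed 1279 to 1297 TPM across R7-I, 1583 to 1805 TPM across R7-II and 1316 to 1383 TPM across R7-III, and members without a KRAB box 2473 to 2549, 2878 to 3110 and 2575 to 2689 TPM.

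**Figure D1:**
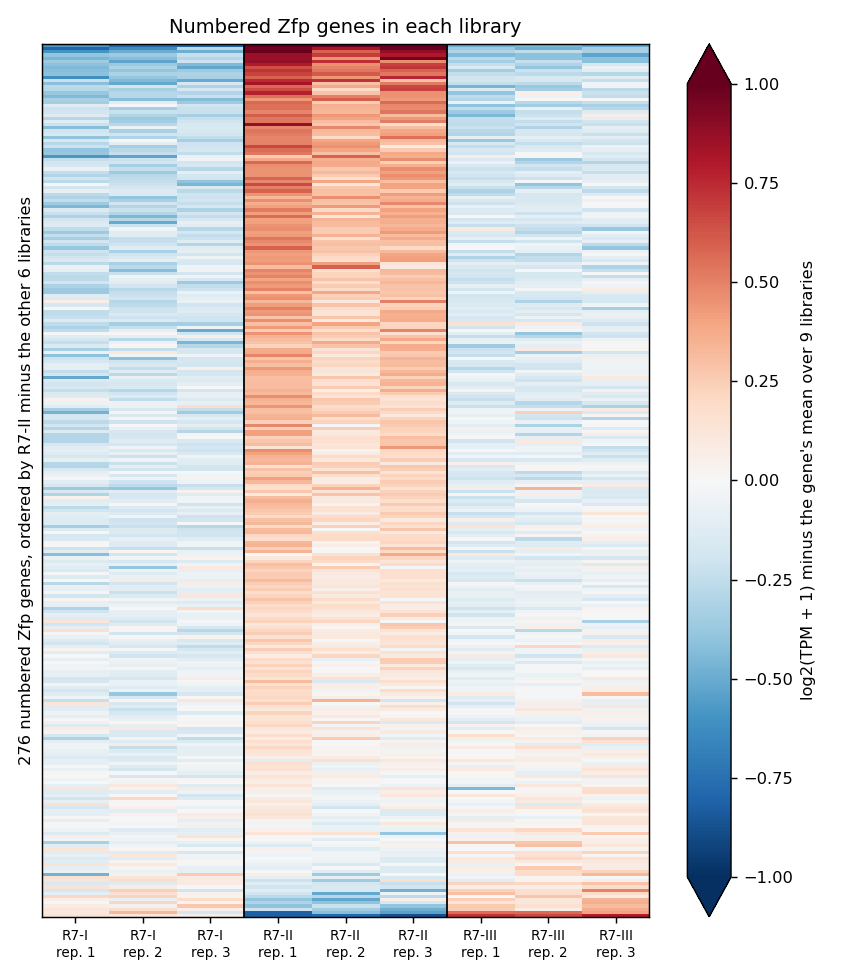
Level of each of the 276 numbered Zfp genes in each library, as log2(TPM + 1) minus the gene's mean over the 9 libraries (color scale, saturated at 1 and -1), with genes ordered by the difference between R7-II and the other 6 libraries. Most genes are above their mean in the 3 R7-II libraries and below it in R7-I and R7-III, R7-II replicate 2 is paler than the other R7-II libraries, and a small group at the bottom runs the opposite way.

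Differences were tested with limma on log2(TPM + 1), a scale that understates the changes of genes with low levels, in 1 fit of all 9 libraries and with p-values adjusted over all 11330 genes; a gene passed at an adjusted p of 0.01. Of the 276 members, 160 were higher in R7-II than R7-I (58%, against 40.6% of all genes tested) and 7 were lower (2.54%, against 15.5%). Compared with R7-III, 136 members were higher in R7-II (49.3%, against 35.6%) and 12 were lower (4.35%, against 18%). The comparisons share the R7-II libraries. The median log2 difference of the members reached 0.35 relative to R7-I and 0.30 relative to R7-III, beside 0.17 and 0.12 over all genes tested. Most differences were small on this scale. More than 1 log2 unit higher in R7-II than R7-I were 10 members (3.62%, against 5.98% of all genes), and 0 were as far lower (against 1.27%). Relative to R7-III, 6 were more than 1 unit higher (2.17%, against 4.77%) and 2 lower (0.725%, against 2.81%). The 1 added to each TPM shrinks differences of low genes, and the members were lower in level than all genes. Zfp367, with means of 16.9 TPM across R7-I and 8.41 TPM across R7-II, is thus not counted as lower than R7-I.

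In both comparisons together, 121 members were higher in R7-II (43.8%, against 31.9% of all genes) and 6 were lower (2.17%, against 12.8%). In 178 members the 3 R7-II libraries all lay above the other 6 (64.5%, against 41.7% of all genes), and in 8 members all lay below (2.9%, against 17.4%). Among the 264 members with a mean above 1 TPM, a cut that does not favor genes high in 1 clone only, 154 were higher and 7 lower in R7-II than R7-I (58.3% and 2.65%, against 41.4% and 16.5% of genes so filtered), and 132 were higher and 11 lower than R7-III (50% and 4.17%, against 36.3% and 18.8%). Without R7-II replicate 1 the members higher in both comparisons numbered 98, and without R7-II replicate 2 they numbered 138. Shares of all genes were not counted for these fits.

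These counts depended on how the libraries were scaled. Median-of-ratios scaling divides each library by its median ratio to a reference made of all libraries; the factors were 1.04 to 1.09 for R7-II and 0.949 to 0.997 for the other libraries, and it moved the median log2 difference over all genes to 0.03 and 0.02. After it, 109 members were higher and 14 lower in R7-II than R7-I (39.5% and 5.07%, against 27.8% and 26.8% of all genes), and 98 were higher and 21 lower than R7-III (35.5% and 7.61%, against 26.7% and 26.5%). All 109 and 98 of these higher members were among those higher on the TPM scale. In both comparisons, 83 were higher (30.1%, against 22.5%) and 11 lower (3.99%, against 21.7%). Quantile normalization, which gives every library the same distribution of values, left 54 members higher and 28 lower in R7-II than R7-I (19.6% and 10.1%, against 22.6% and 26.6%) and 70 higher and 28 lower than R7-III (25.4% and 10.1%, against 24.4% and 25.1%), with 47 higher and 22 lower in both (17% and 7.97%, against 19.2% and 20.6%). The share of members higher in R7-II was thus above that of all genes on the TPM scale and after median-of-ratios scaling and close to it after quantile normalization, whereas the share that was lower in R7-II stayed below that of all genes under all 3 scalings. Under all 3, 46 members were higher in both comparisons. The share of all genes higher under all 3 was not counted, so this number cannot be set against it.

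The share of genes that passed differed between levels, so members were also set beside genes of the same level. On the TPM scale, members with a mean under 3 TPM were higher in both comparisons in 17 of 52 cases (32.7%, against 25% of all genes of that level), those of 3 to 10 TPM in 43 of 99 (43.4%, against 35.7%), those of 10 to 30 TPM in 46 of 92 (50%, against 40.5%) and those of 30 TPM or more in 15 of 33 (45.5%, against 28.1%). They were lower in 1, 2, 1 and 2 cases (1.92%, 2.02%, 1.09% and 6.06%, against 4.65%, 9.3%, 8.71% and 19.8%). After median-of-ratios scaling the shares higher were 23.1%, 32.3%, 31.5% and 30.3%, against 20.8%, 27.8%, 28.6% and 17.5% of all genes, and the shares lower were 1.92%, 2.02%, 4.35% and 12.1%, against 5.67%, 11.5%, 15% and 35.7%. The gap between members and other genes in the share higher was thus smaller within bands of level than over all genes, except at 30 TPM or more.

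**Figure D2:**
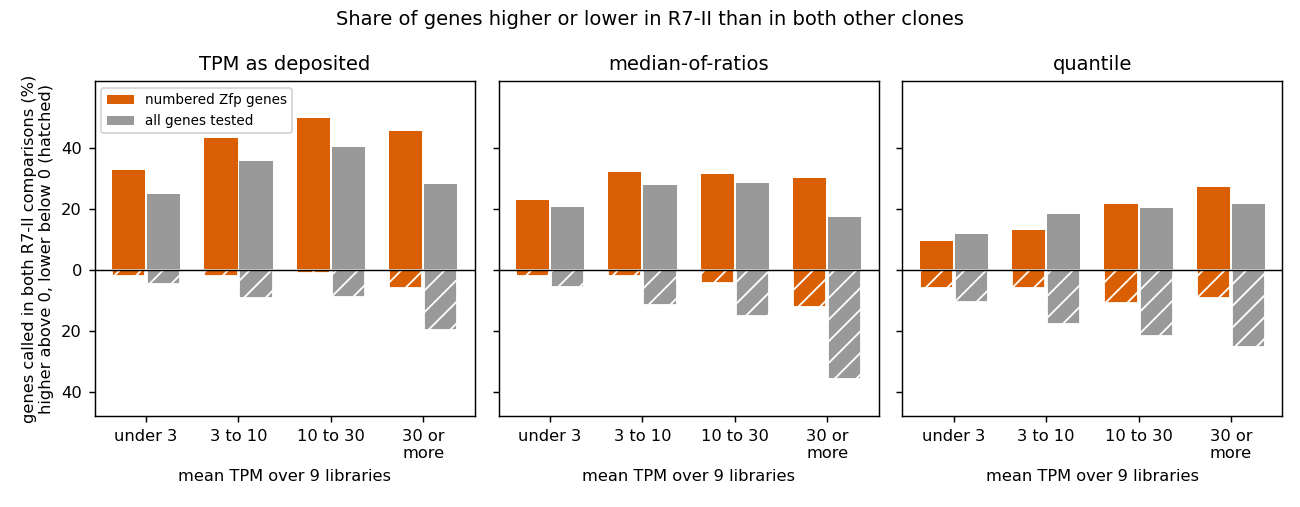
Percentage of the numbered Zfp genes (orange) and of all genes tested (gray) that were higher (above 0) or lower (below 0, hatched) in R7-II than both other clones, by band of mean TPM and for 3 scalings of the libraries. On the TPM scale the orange bars stand above the gray ones in every band, after quantile normalization they do not in the bands under 10 TPM, and the hatched orange bars are shorter than the hatched gray ones in every panel.

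Members with and without a KRAB box were compared by their counts. Of the 163 KRAB members, 97 were higher and 1 lower in R7-II than R7-I (59.5% and 0.613%, against 40.6% and 15.5% of all genes). Relative to R7-III, 83 were higher and 5 lower (50.9% and 3.07%, against 35.6% and 18%). Their median log2 differences from R7-I and R7-III were 0.39 and 0.33. Of the 112 members without a KRAB box, 63 were higher and 6 lower than R7-I (56.2% and 5.36%). Against R7-III, 53 of these were higher and 7 lower (47.3% and 6.25%), and the medians were 0.26 and 0.22. KRAB members thus had the larger medians and the fewer genes lower in R7-II, but they were also the less abundant, as the plot of differences by level shows. Within bands of level the order of both classes was not constant. Higher in R7-II than R7-I were 21 of 43 KRAB members and 3 of 9 others under 3 TPM (against 33.5% of all genes of that level), 44 of 73 and 16 of 25 from 3 to 10 TPM (against 48.2%), 28 of 40 and 30 of 52 from 10 to 30 TPM (against 49.7%), and 4 of 7 and 14 of 26 at 30 TPM or more (against 35.2%). From 3 to 10 TPM the medians were 0.37 for KRAB members and 0.44 for the others. After median-of-ratios scaling, 66 KRAB members were higher and 2 lower than R7-I (40.5% and 1.23%), and 43 and 12 of the others (38.4% and 10.7%), against 27.8% and 26.8% of all genes. After quantile normalization 27 KRAB members (16.6%) and 27 of the others (24.1%) were higher, against 22.6% of all genes. No test of the difference between both classes was run.

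**Figure D3:**
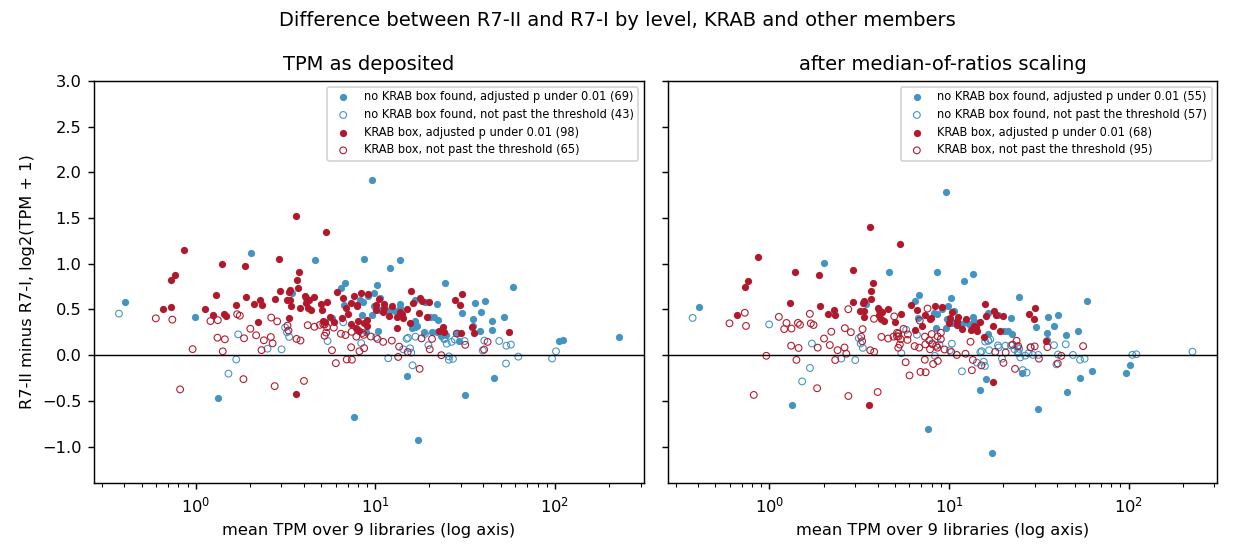
Difference between R7-II and R7-I in log2(TPM + 1) against the mean TPM of each member on a log axis, on the TPM scale (left) and after median-of-ratios scaling (right), for 163 KRAB members (red) and 112 members without a KRAB box (blue), with filled points past an adjusted p of 0.01. Most points lie above 0 on the left, the cloud moves toward 0 on the right, and the largest differences belong to members under 20 TPM.

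The members set apart most in R7-II were named by the smaller of their differences from R7-I and R7-III. The first was Zfp260, which encodes a protein of 12 fingers without a KRAB box that acts with Gata4 in heart muscle cells, on chromosome 7 of GRCm38 (the build mm10) from 30094782 to 30107622. Its level was 4.9, 4.1 and 4.03 TPM across R7-I, 20.2, 16.5 and 21.1 TPM across R7-II, and 5.25, 5.43 and 5.14 TPM across R7-III. The R7-II libraries lay far above the other 6, which formed a narrow range. It exceeded R7-I by 1.92 ± 0.0984 (log2, standard error) and R7-III by 1.69 ± 0.0984 (adjusted p = 1.13e-07 and 2.6e-07), and 1.60 and 1.53 after quantile normalization (adjusted p = 6.42e-07 and 7.25e-07).

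Zfp949, a KRAB gene on chromosome 9, was at 1.36, 1.64 and 2.4 TPM across R7-I, 7, 6.21 and 7.78 TPM across R7-II, and 2.17, 1.92 and 2.23 TPM across R7-III. The R7-II values did not overlap the others, and the differences were 1.53 ± 0.136 and 1.36 ± 0.136 (adjusted p = 4.22e-06 and 1e-05). Zfp945, a KRAB gene of 18 fingers in the cluster on chromosome 17, was nearly silent outside R7-II. It was at 0.25, 0.28 and 0.4 TPM across R7-I, 2.12, 1.33 and 2.34 TPM across R7-II, and 0.42, 0.29 and 0.29 TPM across R7-III, with differences of 1.15 and 1.12 (adjusted p = 6.66e-05 and 8.37e-05). Zfp945 was 1 of the 9 members that met the level cut through R7-II libraries alone, so it had to be higher there, and its differences are given as a description. Zfp831, on chromosome 2, encodes a long protein with 2 fingers and was at 1.12, 1.17 and 1.37 TPM across R7-I, 4.06, 3.51 and 3.86 TPM across R7-II, and 1.05, 1.1 and 0.93 TPM across R7-III. Its R7-II libraries were close to each other, and the differences were 1.12 and 1.25 (adjusted p = 4.71e-06 and 2.2e-06). The KRAB gene Zfp386 on chromosome 12 was at 2.82, 3.1 and 3.12 TPM across R7-I, 10.5, 7.68 and 9.6 TPM across R7-II, and 3.69, 3.84 and 3.6 TPM across R7-III. For Zfp386, R7-II replicate 2 was the lowest of the 3 and still above every other library, and the differences were 1.35 and 1.11 (adjusted p = 1.59e-06 and 6.08e-06).

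Zfp456, in the KRAB cluster of chromosome 13, was at 1.87, 1.54 and 2.18 TPM across R7-I, 5.73, 5.11 and 4.05 TPM across R7-II, and 1.9, 2.12 and 1.75 TPM across R7-III (differences 1.05 and 1.02, adjusted p = 3.8e-05 and 5.08e-05). Of the 100-base stretches of its transcripts, 58% also occur in another annotated gene, so reads could be split between them and its level is uncertain. Zfp579 on chromosome 7 was at 5.84, 6 and 5.69 TPM across R7-I, 14.7, 11.5 and 13.5 TPM across R7-II, and 6.71, 6.38 and 7.02 TPM across R7-III. Zfp395 on chromosome 14, with 1 C2H2 finger, was at 8.4, 9.05 and 9.08 TPM across R7-I, 19, 18.1 and 17 TPM across R7-II, and 9.56, 9.39 and 9.23 TPM across R7-III. In both genes the R7-II libraries stood apart and the other 6 kept within a narrow range, with differences of 1.05 and 0.88 for Zfp579 (adjusted p = 2.4e-06 and 8.63e-06) and 0.95 and 0.87 for Zfp395 (adjusted p = 4.75e-07 and 7.82e-07). Under the 19 alternatives run, 7 of these 8 members passed in both comparisons each time. Zfp945 is not counted here, since it met the level cut through R7-II libraries alone and the filter on the mean TPM left it out.

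**Figure D4:**
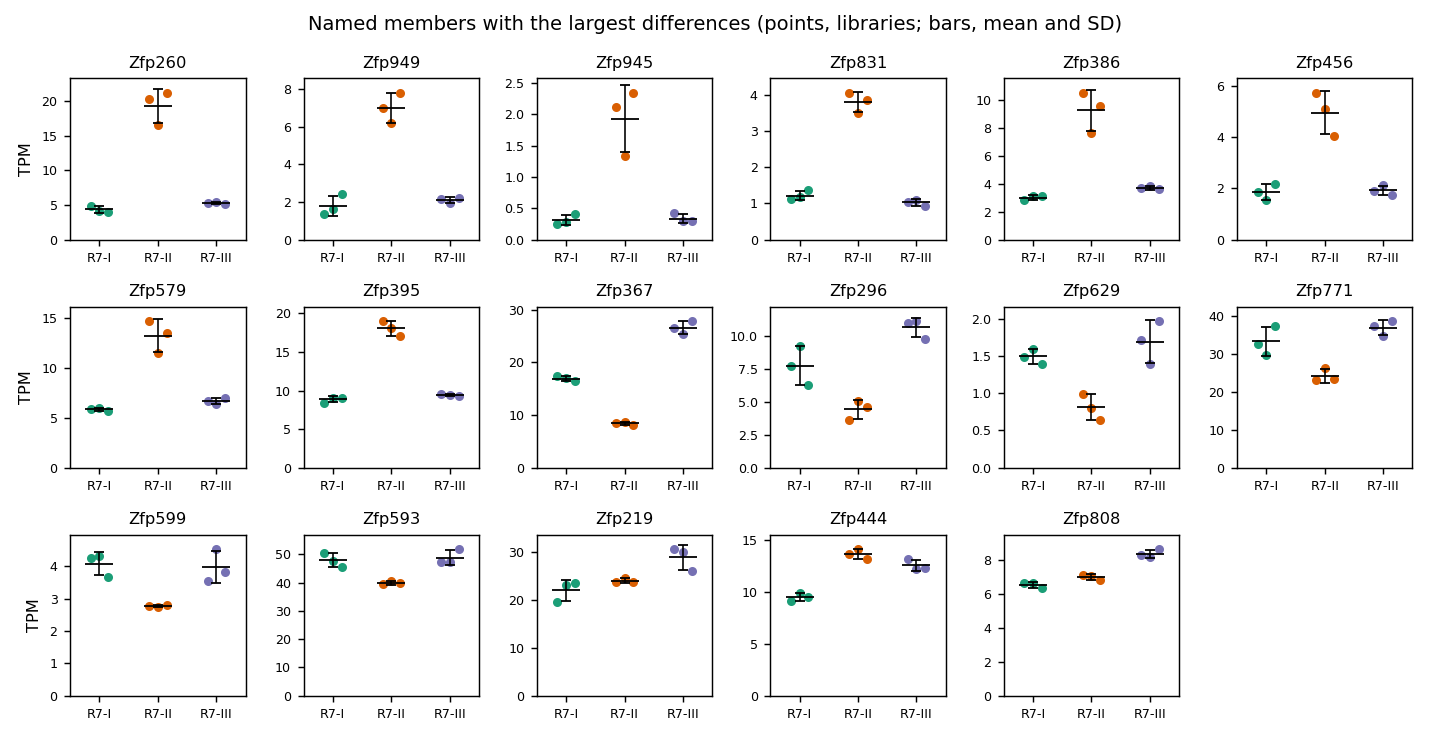
TPM in each library (points) with the mean and SD of each clone (black bars, n = 3), for the 8 members higher and the 6 lower in R7-II by the largest margins and the members higher in R7-III than R7-I. Zfp260, Zfp949, Zfp945 and Zfp831 show R7-II libraries well above all others, and Zfp367 rises from R7-II over R7-I to R7-III with no overlap.

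The 6 members lower in R7-II than both other clones were led by Zfp367, on chromosome 13 from 64133022 to 64153199. Its level was 17.4, 17 and 16.4 TPM across R7-I, 8.46, 8.7 and 8.07 TPM across R7-II, and 26.5, 25.4 and 27.9 TPM across R7-III. The clones did not overlap, and Zfp367 passed in all 3 comparisons, with R7-II at -0.93 ± 0.0554 from R7-I and -1.55 ± 0.0554 from R7-III, and a difference of 0.62 ± 0.0554 when R7-III was set against R7-I (adjusted p = 2.81e-07, 4.01e-08 and 6.69e-05). It was the only member to pass in all 3 comparisons under each of the 3 scalings. Zfp296, a partner of pluripotency factors in embryonic stem cells, was at 7.75, 9.24 and 6.28 TPM across R7-I, 3.64, 5.08 and 4.6 TPM across R7-II, and 11, 11.1 and 9.8 TPM across R7-III. Its order was that of Zfp367, with differences of -0.68 and -1.11 (adjusted p = 9.36e-04 and 3.45e-05), but R7-III and R7-I did not pass (0.42, adjusted p = 0.048).

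Zfp771 was at 32.7, 29.8 and 37.4 TPM across R7-I, 23.1, 26.4 and 23.3 TPM across R7-II, and 37.3, 34.7 and 38.6 TPM across R7-III (differences -0.44 and -0.59, adjusted p = 7.49e-04 and 1.07e-04). Zfp593, a factor of the assembly of the large ribosomal subunit, was at 50.4, 47.8 and 45.5 TPM across R7-I, 39.5, 40.7 and 39.8 TPM across R7-II, and 47.5, 47.4 and 51.8 TPM across R7-III (differences -0.25 and -0.28, adjusted p = 9.32e-04 and 4.78e-04). The R7-II libraries of both genes lay below the other 6 by a small margin, and 57.9% of the 100-base stretches of Zfp593 also occur in another annotated gene. Zfp629 was at 0.64 to 0.99 TPM across R7-II and 1.39 to 1.97 TPM in the other clones (differences -0.47 and -0.57, adjusted p = 0.00627 and 0.00198). Zfp599, the only KRAB gene among the 6, was at 2.74 to 2.8 TPM across R7-II and 3.55 to 4.52 TPM elsewhere (differences -0.43 and -0.39, adjusted p = 0.00268 and 0.0045). Both were near the threshold and lost it in at least 1 comparison when single libraries were left out, with adjusted p-values of up to 0.0255 for Zfp629 and 0.0238 for Zfp599 over the alternatives.

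R7-III and R7-I differed little in this group. Of the 276 members, 4 were higher in R7-III (1.45%, against 6.96% of all genes tested) and 0 were lower (against 1.45%). At an unadjusted p under 0.05 in limma, 49 members were higher (17.8%, against 23.8% of all genes) and 7 lower (2.54%, against 8.51%). The libraries of 79 members were all higher in R7-III than R7-I (28.6%, against 29.5% of all genes) and those of 17 all lower (6.16%, against 12.4%). After median-of-ratios scaling 3 members were higher and 0 lower (against 5.08% and 3.12%), and after quantile normalization 1 was higher and 2 lower (against 3.77% and 2.25%). Beside Zfp367, the members higher in R7-III were Zfp219, a partner of Sox9 in cartilage, at 19.6, 23 and 23.4 TPM across R7-I and 30.6, 30 and 26 TPM across R7-III (0.38, adjusted p = 0.00781), Zfp444 at 9.08, 9.89 and 9.47 TPM across R7-I and 13.1, 12.2 and 12.3 TPM across R7-III (0.37, adjusted p = 0.00214), and Zfp808 at 6.66, 6.67 and 6.35 TPM across R7-I and 8.31, 8.21 and 8.66 TPM across R7-III (0.31, adjusted p = 0.00652). Across R7-II, Zfp219 was at 23.7 to 24.7 TPM and Zfp808 at 6.85 to 7.13 TPM, between the other clones. Zfp444 was at 13.6, 14.1 and 13.1 TPM across R7-II. It was higher there than in R7-I (0.48, adjusted p = 4.21e-05) and did not pass against R7-III (0.11, adjusted p = 0.117). The R7-III and R7-I libraries of Zfp219, Zfp444 and Zfp808 did not overlap. Over the alternatives their adjusted p-values reached 0.0361, 0.0211 and 0.0625, and the call was lost under 13 of 19 alternatives for Zfp219, median-of-ratios scaling among them (adjusted p = 0.0185), 3 of 19 for Zfp444 and 9 of 19 for Zfp808. All 3 lost it after quantile normalization and when R7-I replicate 1 was left out.

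Promoters were examined because so many members were higher in the same libraries. RefSeq windows from 250 bases before to 50 bases after the transcript start were at hand for 231 members. The motif that reads ACTACA, 3 bases of any kind and CCCA, bound by Zfp143 (Staf), a member itself and a factor that binds near the start of many genes, was found on either strand in 48 of them (20.8%; 46 of 229, 20.1%, without Zfp260 and Zfp949, whose promoters had been looked at before the motifs were chosen), against 4.83% of 8504 tested genes with a window and 1.69% of all 32851 windows. It occurred in 39 of 143 KRAB members (27.3%) and 9 of 87 others (10.3%). Most members with the motif lie on chromosomes 7 and 13, where members are concentrated. The matches of Zfp273, Zfp708 and Zfp85, all on chromosome 13, were followed by the same 8 bases. Matches in neighboring genes may thus not be separate occurrences, which was not tested. Of 50 matches in member windows, 48 were centered before the start, with a median position of -51, and no match overlapped another of the motifs searched. The other motifs were searched on both strands too and stood closer to all tested genes: E2F (TTTCCCGC) in 3.03% of members against 2.43%, ETS (CCGGAAGT) in 11.7% against 10%, NRF1 (GCGCATGCG) in 5.19% against 4.6%, and YY1 (AAGATGGCG) in 4.33% against 3.93%.

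The Zfp143 match of those members that were named by their differences between clones is given here to let the shared letters be seen, with the 13 bases of the match in capitals and 8 bases on each side, read on the strand on which the motif stands.
Zfp260, chr7:30095038-30095066, minus strand: aactgtgaACTACATTTCCCAgaagtctc
Zfp949, chr9:88548018-88548046, minus strand: tgttagggACTACATTACCCAtgagcctc
Zfp456, chr13:67375813-67375841, plus strand: tggtgcggACTACATCTCCCAgaagtctg
Zfp219, chr14:52019701-52019729, plus strand: cacccgagACTACAAATCCCAggatgccc
Zfp444, chr7:6172364-6172392, minus strand: agctggaaACTACATCTCCCAagaaacat

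Of the 8 members highest in R7-II by margin, 6 had a window, and beside Zfp260 and Zfp949, from which the motif was chosen, Zfp456 held it. Members with the motif were higher in R7-II than R7-I in 31 of 48 cases and lower in 0, with a median log2 difference of 0.45, and those with a window but no motif were higher in 106 of 183 cases and lower in 5, with a median of 0.34, against 40.6% higher and 15.5% lower over all genes tested. Compared with R7-III the medians were 0.34 and 0.30. The 48 members with the motif include Zfp260 and Zfp949, and 39 of the 48 held a KRAB box. These counts and medians are therefore given as a description only. The whole window of Zfp260, chr7:30094826-30095125 on the plus strand, is given because it belongs to the member that differed most, with the reverse complement of the Zfp143 motif in capitals.
Zfp260 promoter: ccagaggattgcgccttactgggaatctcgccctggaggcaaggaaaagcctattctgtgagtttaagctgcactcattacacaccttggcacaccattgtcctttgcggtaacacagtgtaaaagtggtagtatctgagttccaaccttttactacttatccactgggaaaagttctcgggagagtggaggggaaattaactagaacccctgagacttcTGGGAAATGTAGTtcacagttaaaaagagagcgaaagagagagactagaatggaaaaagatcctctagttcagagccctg
A window of Zfp367, chr13:64153150-64153449 on the minus strand, is given for contrast, since Zfp367 led the members lower in R7-II. Of the 2 windows of this gene, only that with an E2F match is printed, and neither held the Zfp143 motif. The printed window held 1 reverse complement of the E2F motif, in capitals, across the transcript start.
Zfp367 promoter: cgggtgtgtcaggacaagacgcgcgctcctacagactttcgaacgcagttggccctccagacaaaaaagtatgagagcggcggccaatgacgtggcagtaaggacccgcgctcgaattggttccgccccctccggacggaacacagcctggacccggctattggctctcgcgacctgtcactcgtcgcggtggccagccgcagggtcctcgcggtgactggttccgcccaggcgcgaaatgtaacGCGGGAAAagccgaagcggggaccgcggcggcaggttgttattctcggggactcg
Zfp143 itself was at 15.2, 14.8 and 15.4 TPM across R7-I, 19.8, 17.4 and 19.9 TPM across R7-II, and 13.8, 14.3 and 17.9 TPM across R7-III. Its difference did not pass against R7-I or R7-III (0.31 and 0.30, adjusted p = 0.0106 and 0.0125), and R7-II replicate 2 overlapped R7-III replicate 3. It passed under 6 of 19 alternatives against R7-I and 4 of 19 against R7-III.

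Among KRAB members of known targets, Zfp809, which silences proviruses of murine leukemia virus, was at 32.9, 30.6 and 33.3 TPM across R7-I, 41.3, 38.9 and 40.2 TPM across R7-II, and 30.2, 30.4 and 32.6 TPM across R7-III. The R7-II libraries lay above the others, with differences of 0.31 and 0.36 (adjusted p = 2.57e-04 and 8.92e-05) that median-of-ratios scaling brought to 0.15 and 0.25 (adjusted p = 0.00734 and 3.96e-04), and after quantile normalization the call against R7-I was lost (adjusted p = 0.038). Zfp445, which protects imprinted methylation, was at 51.5 to 52.5 TPM across R7-I, 57.6 to 66.6 TPM across R7-II and 51.6 to 54.4 TPM across R7-III (0.25 and 0.22, adjusted p = 0.00108 and 0.00311), but after median-of-ratios scaling it passed neither comparison, with adjusted p = 0.0472 and 0.0374. Its partner in imprinting, Zfp57, never exceeded 0.05 TPM and was no member. Zfp932, a repressor of endogenous retroviruses, and Zfp568, which represses a placental transcript of Igf2, did not pass in any comparison on the TPM scale (adjusted p = 0.0107 and 0.838 for R7-II against R7-I), though after quantile normalization Zfp568 was lower in R7-II than R7-I (-0.29, adjusted p = 0.0057). Zfp746 (PARIS), a repressor of Ppargc1a, passed against R7-I alone (0.25 and 0.19, adjusted p = 0.00236 and 0.0116), a call lost under median-of-ratios scaling (0.10, adjusted p = 0.0861) and quantile normalization (adjusted p = 0.87).

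Several members known as transcription factors of other kinds were higher in R7-II. Zfp281, which binds GC-rich promoters, was at 35.4, 34.4 and 34.8 TPM across R7-I, 57, 49.3 and 53.1 TPM across R7-II, and 32.2, 35 and 33.7 TPM across R7-III (0.59 and 0.64, adjusted p = 4.87e-06 and 2.82e-06). Zfp217, which works with the CoREST and CtBP co-repressors, was at 13.7, 13 and 14.1 TPM across R7-I, 21.9, 21 and 20.9 TPM across R7-II, and 14.5, 13.8 and 15.7 TPM across R7-III (0.61 and 0.51, adjusted p = 8.06e-06 and 3.06e-05). Both genes had R7-II libraries well apart from the other 6 and passed under all 3 scalings. Zfp384 (CIZ), a nuclear matrix protein, was at 45.2 to 48.7 TPM across R7-I, 57.4 to 66 TPM across R7-II and 46.3 to 48.4 TPM across R7-III (0.42 and 0.39, adjusted p = 6.01e-05 and 1.08e-04). Zfp592 (0.40 and 0.38, adjusted p = 2.75e-05 and 3.97e-05) and Zfp687 (0.48 and 0.33, adjusted p = 2.66e-04 and 0.00355), which form a complex with Zmynd8, were both higher in R7-II, Zfp592 under all 3 scalings and Zfp687 against R7-III on the TPM scale alone and against R7-I except after quantile normalization (adjusted p = 0.0222).

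Some members have a known part in lymphocytes. Zfp335, needed for the maturation of naive T cells, was at 34.6, 36.9 and 36.1 TPM across R7-I, 44.9, 41.7 and 43.1 TPM across R7-II, and 35.7, 35.6 and 37.2 TPM across R7-III (0.26 and 0.25, adjusted p = 3.33e-04 and 4.78e-04), and under median-of-ratios scaling the differences were 0.11 and 0.14 (adjusted p = 0.0171 and 0.0045). Zfp318, which controls the splicing that yields IgD in B cells, was at 6.78, 6.49 and 7.32 TPM across R7-I, 11.8, 11.5 and 9.31 TPM across R7-II, and 7.74, 7.64 and 8.19 TPM across R7-III (0.59 and 0.41, adjusted p = 1.71e-04 and 0.00189). Zfp318 and Zfp335 lost both calls after quantile normalization (adjusted p = 0.0292 and 0.056 for Zfp318, 0.0824 and 0.0151 for Zfp335). Among R7-II libraries Zfp318 was lowest in replicate 3, and the B cell markers in replicate 2; the part of B cell RNA in its level was not tested. Zfp91, a ubiquitin ligase of the noncanonical NF-kB pathway, did not pass in any comparison (0.12 and 0.13, adjusted p = 0.0653 and 0.0441). Zfp683 and Zfp638 were not analysed here.

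Of the remaining members with known roles, Zfp148 (ZBP-89), a factor that binds GC-rich promoters, passed toward R7-II in both comparisons (0.26 and 0.25, adjusted p = 0.0027 and 0.00297) but lost both calls after median-of-ratios scaling. Zfp410, which activates Chd4, was at 31 to 31.7 TPM across R7-I, 38.1 to 40.6 TPM across R7-II and 33 to 35.6 TPM across R7-III (0.32 and 0.21, adjusted p = 7.9e-05 and 0.00175). Zfp326, a subunit of the DBIRD complex that links transcription to splicing, was at 19.3 to 19.7 TPM across R7-I, 25.4 to 25.9 TPM across R7-II and 20.8 to 22.9 TPM across R7-III (0.38 and 0.20, adjusted p = 5.34e-05 and 0.00357). Zfp410 and Zfp326 lost the call against R7-III under median-of-ratios scaling (adjusted p = 0.0474 and 0.0748), and both calls after quantile normalization (adjusted p = 0.0247 and 0.173 for Zfp410, 0.0351 and 0.547 for Zfp326). The SUMO ligase Zfp451, the spliceosome protein Zfp830, Zfp644, a partner of the methyltransferases G9a and GLP, and the ribosome assembly factor Zfp622 passed in no comparison on the TPM scale. Zfp622 was at 52.3 to 58.8 TPM across R7-I, 51.2 to 52.7 TPM across R7-II and 51.4 to 54.4 TPM across R7-III, and was lower in R7-II than R7-I after median-of-ratios scaling (-0.24, adjusted p = 5.76e-04).

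KRAB proteins act through shared co-repressors, so 18 genes of that machinery and of enzymes that work with it were listed and counted. They are called co-repressor genes here, though the list also holds Uhrf1 and Dnmt1, which maintain DNA methylation. On the TPM scale, 5 were higher and 4 lower in R7-II than R7-I (against 40.6% and 15.5% of all genes), 5 higher and 7 lower than R7-III (against 35.6% and 18%), and 7 higher and 0 lower in R7-III than R7-I (against 6.96% and 1.45%). After median-of-ratios scaling the counts were 3 and 8 (against 27.8% and 26.8% of all genes), 3 and 10 (against 26.7% and 26.5%), and 5 and 1 (against 5.08% and 3.12%). Trim28, the scaffold that KRAB domains bind, was abundant in every library, at 423 to 434 TPM across R7-I, 401 to 410 TPM across R7-II and 449 to 470 TPM across R7-III. It was lower in R7-II than R7-III (-0.18, adjusted p = 1.23e-04) and did not pass in the comparison with R7-I (-0.08, adjusted p = 0.0176). Against R7-I it passed after median-of-ratios scaling (-0.24, adjusted p = 1.32e-05) but not after quantile normalization (-0.0067, adjusted p = 0.811). The methyltransferase gene Setdb1 was at 58.1 to 65.2 TPM in all 9 libraries and passed in no comparison on the TPM scale.

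Atf7ip, which stabilizes Setdb1 in the nucleus, was at 33.3, 32.5 and 32.6 TPM across R7-I, 57, 54.4 and 53.7 TPM across R7-II, and 34.6, 34.3 and 36.3 TPM across R7-III (0.73 and 0.64, adjusted p = 1.74e-07 and 4.12e-07). The NuRD helicase gene Chd3 was at 24.8, 25.1 and 30.6 TPM across R7-I, 50.3, 49.1 and 57 TPM across R7-II, and 34.1, 35.1 and 36.1 TPM across R7-III (0.94 and 0.56, adjusted p = 3.31e-06 and 1.39e-04). These were the members of the list with the largest differences toward R7-II. In the opposite direction, Uhrf1, which brings Dnmt1 to newly replicated DNA, was at 107, 120 and 105 TPM across R7-I, 37, 47.2 and 44.5 TPM across R7-II, and 186, 188 and 193 TPM across R7-III (-1.35 and -2.12, adjusted p = 2.59e-07 and 4.34e-08). The maintenance methyltransferase gene Dnmt1 was lower in R7-II than R7-III (-0.67, adjusted p = 2.32e-07) and higher in R7-III than R7-I (0.58, adjusted p = 9.22e-06). Cbx5, which encodes heterochromatin protein 1 alpha, was at 53.3 to 58.6 TPM across R7-I, 44.6 to 46.3 TPM across R7-II and 67.5 to 69.3 TPM across R7-III and passed in all 3 comparisons (adjusted p = 1.37e-04, 8.91e-07 and 9.34e-04). Uhrf1, Cbx5, Dnmt1 and Trim28 had the order of Zfp367, R7-II lowest and R7-III highest, with no overlap between the clones. Dnmt1 and Trim28 did not pass between R7-II and R7-I (adjusted p = 0.0597 and 0.0176). Trim28 did not pass between R7-III and R7-I either (adjusted p = 0.0216).

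**Figure D5:**
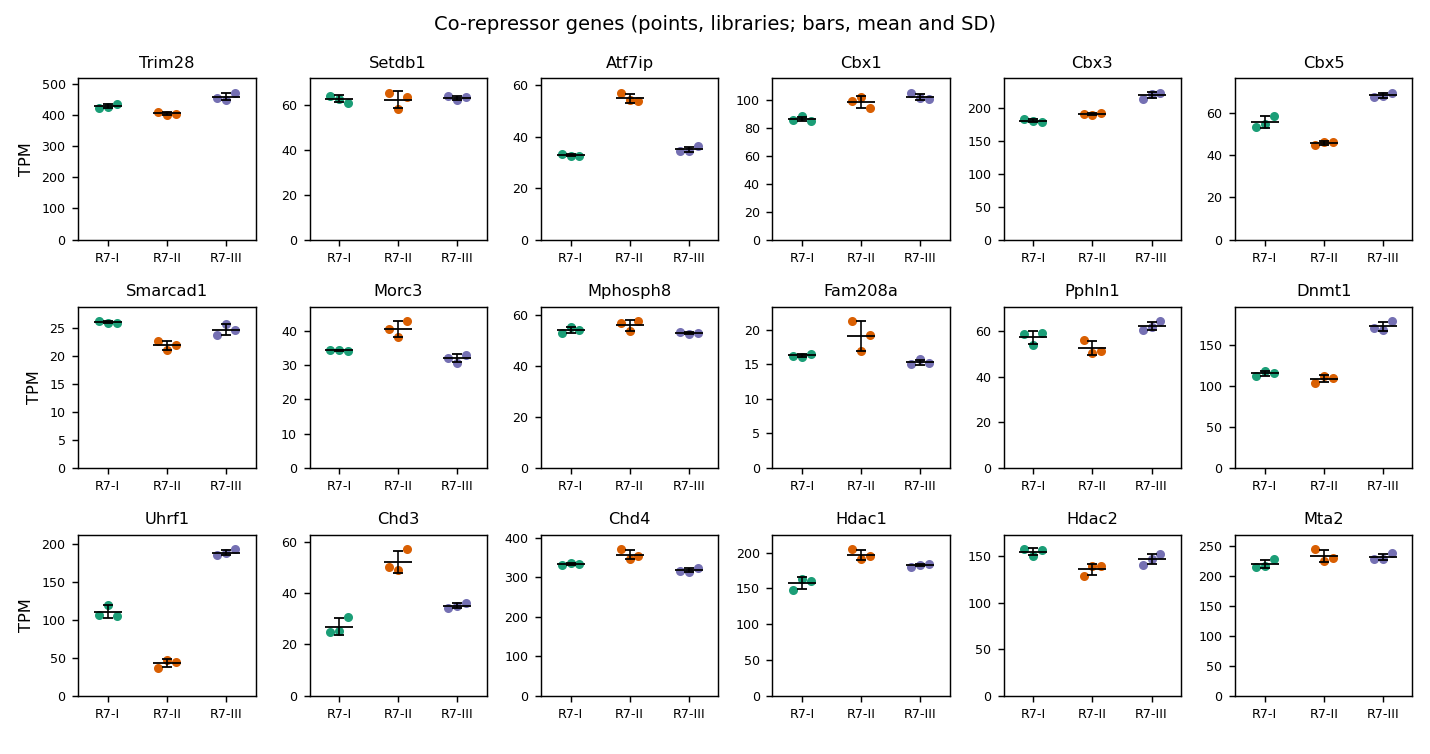
TPM in each library (points) with the mean and SD of each clone (black bars, n = 3), for 18 co-repressor genes. Atf7ip and Chd3 are highest in R7-II, Uhrf1, Dnmt1 and Cbx5 are highest in R7-III and lowest in R7-II, Dnmt1 with R7-I and R7-II close together, and Setdb1 spans 58.1 to 65.2 TPM over all libraries.

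Similar sequences limit what can be said of single members. Of the 276 members, 22 shared more than 20% of the 100-base stretches of their transcripts with another gene of the GENCODE annotation, as Zfp960 and Zfp97 did with each other. Among these 22, 14 were higher and 1 lower in R7-II than R7-I, and among the other 254 members 146 were higher and 6 lower. On chromosome 8, where the KRAB genes Zfp868, Zfp964, Zfp869, Zfp963 and Zfp866 stand side by side, 15 of 20 members were higher in R7-II than R7-I and 0 lower. Zfp868 was at 25.2 ± 0.308 TPM across R7-I, 40.7 ± 3.01 TPM across R7-II and 24.7 ± 2.11 TPM across R7-III, and Zfp930, nearby, had a difference of -0.15 (adjusted p = 0.0518). The chromosome was looked at after its values had been seen. On chromosome 17, 21 of 34 members were higher and 0 lower, on chromosome 13, 17 of 28 higher and 1 lower, on chromosome 7, 38 of 72 higher and 3 lower, and on chromosome 6, 6 of 17 higher and 0 lower. Over all genes tested, on every chromosome, 40.6% were higher and 15.5% lower.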

How the data were processed

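RNA of sorted, peptide-activated CD8 T cells was measured in 9 libraries, 3 for each of 3 clones. The authors used RSEM 1.2.11 both to align reads and to estimate gene levels on RefSeq genes of mm10 from non-stranded single-end reads and deposited TPM values rounded to 2 decimals; the authors' submission also names DESeq2 1.8.1. Antisense transcripts cannot be told apart from these genes. Read depth is not kept by TPM.

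Differences in log2(TPM + 1) were fitted by limma 3.58.1 under R 4.3.3 (lmFit, then eBayes including a mean-variance trend, all 9 libraries in 1 fit) over the 11330 genes whose maximum TPM exceeded 1, adjusted after Benjamini and Hochberg, with 0.01 as the threshold. On data simulated from the R7-I means, 200 of 10345 genes were shifted up or down by 1 or 2 log2 units in R7-II. This fit recovered 191 of them with 2 false calls. Smaller shifts, shifts mostly in 1 direction and the choice of scaling were not simulated. The members, the lists and the alternatives were chosen with earlier results of these data known. The rule for the genes named took the 8 members higher and 8 lower (6 existed) in R7-II by the smaller of both differences, without overlap of libraries, 4 in each direction between R7-III and R7-I, the 5 most abundant, 3 on each side of the level cut, members of well-known function, and 18 co-repressor genes. Zfp868, Zfp930 and other genes of chromosome 8 were named after their values were seen.

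Positions and promoter windows are from RefSeq on GRCm38.p6, the build of mm10, and all 276 members had a position, 2 of them by an older symbol. Fingers, KRAB boxes (a profile of 38 residues built from the members' own proteins, searched in the first 350 residues) and shared stretches of 100 bases were found with Biopython 1.88 in the longest reading frame or the transcripts of GENCODE vM21, a gene set that differs from the one used to estimate the levels. The motifs were chosen after the promoters of Zfp260 and Zfp949 had been looked at. Alternatives were pseudocounts of 0.1 and 5, other filters, scalings, moderations and thresholds, fits of the compared clones alone, the replicate number as a block, and each library left out in turn.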

Additional observations from a re-analysis of the deposited data

How the results depend on the processing

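Pseudocounts, filters, moderation and fits of the compared clones alone kept the counts of members higher in R7-II within 1.5 times of those reported, and so did median-of-ratios scaling, but not quantile normalization. Quantile normalization gave 54, 70 and 47 members higher in R7-II than R7-I, R7-III and both, 28, 28 and 22 lower, and 1 higher and 2 lower in R7-III than R7-I. Median-of-ratios scaling gave 14, 21 and 11 members lower in R7-II than R7-I, R7-III and both (against 26.8%, 26.5% and 21.7% of all genes). Its co-repressor counts in R7-II were 3 higher and 8 lower than R7-I (against 27.8% and 26.8%) and 3 higher than R7-III (against 26.7%). In R7-III, 1 co-repressor gene was lower than in R7-I (against 3.12%). The fit of the compared clones alone gave 6 members lower in R7-II than R7-III. At an adjusted p of 0.05, 17 members were higher and 1 lower in R7-III than R7-I, and 8 co-repressor genes were higher in R7-II than R7-I. Shares of all genes were not counted at this threshold or for the fit of the compared clones alone. At 0.01, 4 members were higher in R7-III than R7-I (1.45%, against 6.96% of all genes). Zfp598 and Zfp808 were lower in R7-II than R7-I after median-of-ratios scaling (-0.11) and quantile normalization (-0.24), respectively, where neither had passed before, and the call of Zfp148 ended after quantile normalization, at a difference of -0.0046. The cause of these changes was not tested.

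When single libraries were left out, the members higher in R7-II than R7-I, R7-III and both numbered 128 to 168, 107 to 146 and 98 to 138, those lower 4 to 8, 6 to 10 and 4 to 5, and those higher in R7-III than R7-I 1 to 4. The lower members fell to 4 against R7-I without R7-I replicate 1, and to 6 against R7-III without R7-II replicate 2, R7-III replicate 2 or R7-III replicate 3. Those higher in R7-III than R7-I fell to 1 without R7-I replicate 1 or R7-III replicate 1 and to 2 without R7-I replicate 2 or R7-III replicate 2. The co-repressor genes higher in R7-III than R7-I numbered 4 to 7, with 4 without R7-I replicate 1 or R7-III replicate 1. For the fits with a library left out, shares of all genes were not counted. Over the named members, 2568 of 2735 values under an alternative kept their direction and side of the threshold.

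Same-numbered libraries of different clones did not deviate together (correlations of -0.0449 to 0.0888 over genes), so the numbers were not taken to pair the samples; with the replicate number as a block, 146 members were higher and 6 lower in R7-II than R7-I, 132 and 9 than R7-III, and 2 were higher in R7-III than R7-I. For the fit with this block, shares of all genes were not counted. The paper gives only a typical depth of its samples. The depth of each library is unknown, so the error of members near 1 TPM cannot be separated into counting and biological parts.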
